A study of Mus musculus with 32 samples.

Results

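Glycolysis, the entry of pyruvate into mitochondria and the pentose phosphate path were followed through 32 enzyme genes, chosen as a list by name and not by their values, out of 51826 genes counted by RNA-seq in mouse embryonic stem (ES) cells. All 32 were found in the table, all 32 passed the filter on low counts, and all 32 reached a mean of 1 FPKM (counts on a gene scaled to its exon length and to the library total) in at least 1 condition. The study asked which factors drive ES cells out of naive pluripotency, and compared the parental line RGd2 with lines that lack Etv5, Rbpj, both, or both together with Tcf3 (gene symbol Tcf7l1). The 32 libraries come from 11 conditions with 3 libraries each, except Etv5-KO N16h, which has 2. The methods of the study name RGd2 N16h as the condition short of a library, and the sample labels were followed here. Etv5 had 13157, 12468 and 11985 normalised counts in the libraries labelled RGd2 N16h and 3373 and 2734 in those labelled Etv5-KO N16h. Each library held 5986857 to 71439411 counts on genes, with a median of 29940141, and the lowest was RGd2 2i replicate 33.

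All the lines carry the Rex1-GFPd2 knock-in reporter of the naive state. RGd2 was sampled in 2i, a MEK inhibitor together with the GSK3 inhibitor CHIRON (CH) in N2B27 medium (RGd2 2i); after 5 passages in 2i (RGd2 2ip5); 16 h and 72 h after 2i was withdrawn into N2B27 (N16h and N72h); and after 2 passages in CH without the MEK inhibitor (CHp2). Rbpj-KO and Etv5-KO lines were sampled in 2i and at N16h. The Etv5 and Rbpj double mutant (ER-dKO) was sampled after 5 passages in CH and the triple mutant without Etv5, Tcf3 and Rbpj (ETR-tKO) after 5 passages in N2B27 without inhibitors. Cells sampled in 2i and at N16h had been expanded in CH with the cytokine LIF and moved to 2i before sampling. Of the 3 RGd2 libraries in a condition, 2 came from the parental culture and 1 from a clonal derivative. Each mutant library came from a single CRISPR clone, so p-values measure the spread between these lines and cultures. ETR-tKO replicates 14 and 15 are labelled (Tc1)ERc2 and (Tc1)ERc10, and replicate 13 (ETc1)Rc53. The shared prefix may mark a common parent clone, so the 3 may not be independent lines.

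Glycolysis splits glucose into pyruvate in the cytosol. Hexokinase traps glucose, phosphofructokinase makes the committed step, and lactate dehydrogenase turns pyruvate into lactate, whereas the pyruvate dehydrogenase complex passes it to the citric acid cycle and is switched off by its kinases (PDK). The pentose phosphate path branches off at glucose 6-phosphate and makes NADPH and ribose. Naive ES cells are known to combine glycolysis with respiration, and cells that have left the naive state to rely more on glycolysis. Several steps are encoded by more than 1 isoenzyme gene.

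The targeted genes were checked first. Etv5 had a log2 fold change of −2.79 in Etv5-KO 2i against RGd2 2i and Rbpj one of −2.02 in Rbpj-KO 2i. In ETR-tKO against RGd2 2ip5, Tcf7l1 had −2.66 and Etv5 −2.57, whereas Rbpj had −0.55 (1559, 2281 and 2348 normalised counts against 2830, 3385 and 2853). In the libraries labelled ER-dKO, Rbpj had 1138 and 1307 in replicates 10 and 11 but 3489 in replicate 12, above every RGd2 2ip5 library, so its Rbpj count goes against its label. Etv5 was low in all 3 of them (1954, 1397 and 1684 against 10666, 11868 and 10345). Reads outside deleted exons remain countable, and which exons were counted was not tested. Results for ER-dKO are therefore also given without replicate 12. Pou5f1, which is not limited to naive cells, had a mean of 272 FPKM or more in every condition. The summed FPKM of 7 pluripotency markers, most of them naive, was 419 to 436 at N72h, 611 to 631 in CHp2 and 880 to 904 at N16h, against 1165 to 1223 in RGd2 2ip5 and 1237 to 1355 in RGd2 2i. At N72h that of 5 formative markers was 506 to 521 against 30.6 to 33.9. In CHp2 the 4 mesendoderm markers summed to 69.9 to 73.4 FPKM against 8.84 to 10.1, mainly T with a mean of 69.1. The 5 neural markers summed to 77.2 to 92.5 FPKM at N72h and 67.5 to 70.7 FPKM in ETR-tKO. RGd2 2ip5 had 23.4 to 25.8 FPKM, RGd2 2i 48.1 to 57.5 FPKM and RGd2 N16h 16.6 to 20.8 FPKM. A mean of 1 FPKM was reached by 2 of the 5 at N72h and by 3 in ETR-tKO. The 4 fibroblast markers summed to 6.19 to 7.27 FPKM at N72h against 1.21 to 2.42 FPKM in 2ip5. Endoderm and trophectoderm markers summed to at most 7.49 and 8.55 FPKM in any library, and Col1a1 and Col1a2 stayed at a mean of 0.12 FPKM or less. The part that these markers play in the differences below was not tested.

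The levels of the members spanned 3 orders of magnitude. Per exon length, Gapdh was highest, from a mean of 697 FPKM in Rbpj-KO N16h to 922 FPKM in RGd2 N72h, followed by Pkm (476 to 770 FPKM) and Aldoa (336 to 575 FPKM). Eno2, Pdk2, Pdk4, Pfkfb3 and Rpia stayed under 3 FPKM in every condition mean. Between conditions, Pdk1 varied most, 8.02-fold from a mean of 8.13 FPKM in Etv5-KO 2i to 65.2 FPKM in RGd2 CHp2. Ldha varied 7.07-fold, from 69.8 FPKM in ETR-tKO to 493 FPKM in RGd2 N72h, and Aldoc 6.97-fold, from 2.45 FPKM in Etv5-KO 2i to 17.1 FPKM in RGd2 N72h. Pgam1, Tkt and Gapdh varied least, by 1.27-fold, 1.32-fold and 1.32-fold. Together the 32 genes took 1.26% (an ETR-tKO library) to 2.02% (an RGd2 N72h library) of the counts on genes. Reads that match a processed copy of Gapdh, Pgam1, Eno1 or Ldha elsewhere in the genome are lost when unique matches are counted, so the levels of these genes are uncertain between genes.

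**Figure D1:**
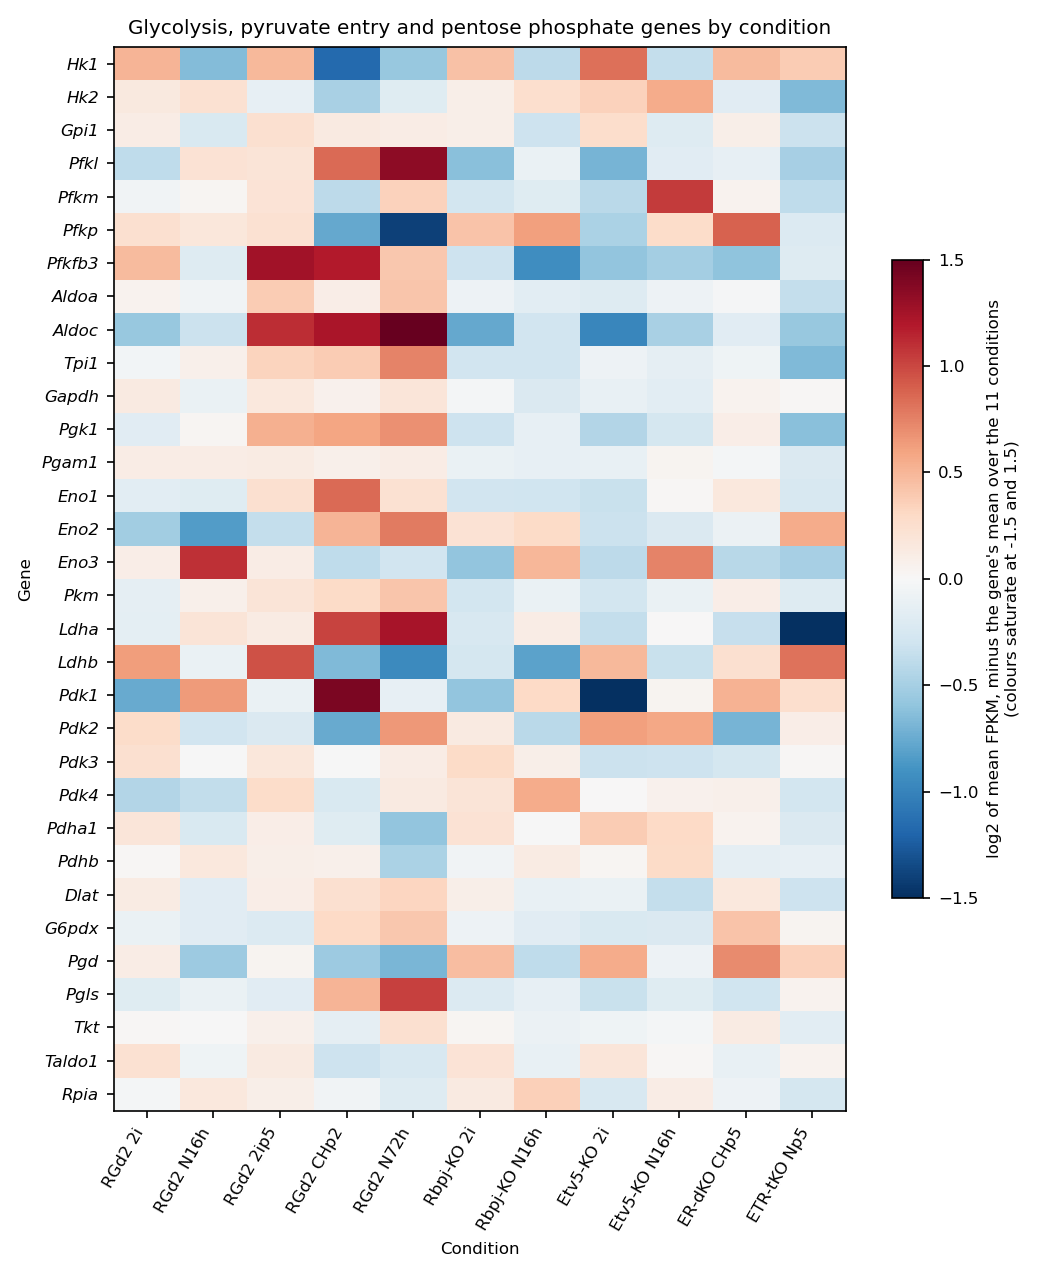
Mean FPKM of the 32 genes (rows) in the 11 conditions (columns) on the log2 scale, minus each gene's mean over conditions, with colours saturating at −1.5 and 1.5. Ldha and Pfkl are red where Ldhb, Pfkp and Hk1 are blue (RGd2 CHp2 and N72h), and Ldha is bluest in ETR-tKO.

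Ldha (ENSMUSG00000063229.15, chromosome 7, 46841475 to 46855627, plus strand, GRCm38) and Ldhb (ENSMUSG00000030246.11, chromosome 6, 142490249 to 142507957, minus strand) make the subunits of lactate dehydrogenase, and Pgk1 (ENSMUSG00000062070.12, chromosome X, 106187100 to 106203699, plus strand) makes phosphoglycerate kinase, the first ATP-forming step. They are shown because Ldha and Ldhb moved in opposite directions and Pgk1 fell with Ldha in ETR-tKO. The 250 bases before an annotated RefSeq start (GRCm38.p6) are given below, 5′ to 3′ on the gene's strand. Every ACGTG, a form of the core letters of the hypoxia response element, is in capitals on either strand. The windows are chr7:46845554-46845803 for Ldha, which lies inside the span of its gene model before a start within it, chrX:106186850-106187099 for Pgk1 and chr6:142507958-142508207 for Ldhb.
Ldha: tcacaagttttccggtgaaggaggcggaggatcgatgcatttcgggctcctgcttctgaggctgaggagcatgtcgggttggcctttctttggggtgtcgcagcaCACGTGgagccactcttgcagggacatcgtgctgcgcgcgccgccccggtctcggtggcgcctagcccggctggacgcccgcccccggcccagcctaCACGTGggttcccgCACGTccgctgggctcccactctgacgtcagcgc
Pgk1: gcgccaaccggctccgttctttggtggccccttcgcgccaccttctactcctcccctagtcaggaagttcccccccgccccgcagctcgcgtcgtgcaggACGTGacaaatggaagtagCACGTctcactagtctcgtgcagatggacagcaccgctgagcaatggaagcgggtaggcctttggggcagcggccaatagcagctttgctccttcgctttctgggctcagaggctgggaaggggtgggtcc
Ldhb: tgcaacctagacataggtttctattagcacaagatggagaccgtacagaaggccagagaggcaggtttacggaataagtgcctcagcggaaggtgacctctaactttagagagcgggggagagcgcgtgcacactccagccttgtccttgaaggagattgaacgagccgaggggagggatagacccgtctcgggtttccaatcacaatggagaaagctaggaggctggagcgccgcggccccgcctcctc

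The Ldha window held 5 matches over both strands, of which 2 CACGTG palindromes count on each strand, and the Pgk1 window 2. Ldhb held 0. Another annotated Ldha start had 0 matches in its window. Of all 32851 windows of this length 16.6% held ACGTG, and of the 47 windows of the 32 members 14 did, belonging to 11 genes (Hk2, Pfkm, Pfkfb3, Aldoa, Pgk1, Pgam1, Pkm, Ldha, Pdk2, Pdk3 and Pdhb). The letters TGGGAA, the core of the motif that RBPJ binds, were in 21.6% of all windows and in 11 of the 47. A match describes the letters and not a bound site.

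In the first 16 h after 2i withdrawal RGd2 cells lowered Hk1, Ldhb and Pfkfb3 and raised Pdk1 and Eno3. Counts were scaled by spike-in RNA added to every sample, so that a change of all genes together stays visible. The methods of the study do not say whether it was added per cell or per amount of RNA. Less RNA per cell, fewer cells and differences in handling therefore cannot be told apart. A gene was called at an adjusted p under 0.05 in the quasi-likelihood test of edgeR, adjusted over the 18892 genes tested by Benjamini-Hochberg, and a mean of at least 1 FPKM in either group. Of the 30 members past the FPKM minimum, 3 were higher (10%) and 14 lower (46.7%), where of all 11748 such genes 8.63% were higher and 37.4% lower. With TMM normalization, which holds the bulk of genes level and raised the median of all genes by 0.23 on the log2 scale, 6 were higher and 9 lower, against 22.4% and 23.8% of all genes. The median log2 fold change of the 32 members was −0.24 and that of all genes −0.23, so the members as a list moved with all genes. A model of only these 6 libraries called 8 members (2 higher and 6 lower).

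Pdk1, the kinase that switches off pyruvate dehydrogenase, had normalised counts of 3736, 3229 and 2657 in RGd2 2i and 7505, 7281 and 6938 at N16h. Every N16h library was above every 2i library, and the log2 fold change was 1.17 (SE 0.10, adjusted p = 4.60e-12 by edgeR). Eno3, the enolase of muscle, had 446, 333 and 210 in 2i and 577, 551 and 537 at N16h, again without overlap, a log2 fold change of 0.69 (SE 0.18, adjusted p = 0.00188 by edgeR). Pfkl, the liver-type phosphofructokinase, had 6874, 5265 and 4074 in 2i and 7816, 7380 and 5843 at N16h. These groups overlapped, and its log2 fold change of 0.37 (SE 0.13, adjusted p = 0.0270 by edgeR) was not called without RGd2 2i replicate 32 (0.35) or 33 (0.21), N16h replicate 22 (0.29) or 23 (0.33), or in a model of these libraries alone.

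Hk1, the hexokinase of most tissues, fell from 2905, 2151 and 1974 normalised counts in 2i to 908, 905 and 881 at N16h, the largest change of any member here (log2 fold change −1.39, SE 0.12, adjusted p = 4.99e-12 by edgeR). Ldhb, whose subunit favours the use of lactate, fell from 15166, 11557 and 6945 to 6170, 6678 and 4287 (−0.98, SE 0.16, adjusted p = 4.20e-06 by edgeR). Pfkfb3, which makes the activator of phosphofructokinase, fell from 487, 365 and 254 to 221, 219 and 155 (−0.93, SE 0.20, adjusted p = 2.76e-04 by edgeR). No library of N16h reached the lowest 2i library for these genes. Among the 2i libraries replicate 31 was highest and replicate 33 lowest for Ldhb, Pfkfb3 and Hk1. In the pentose phosphate path Pgd, which makes NADPH, fell (−0.89), Taldo1 (−0.47) and G6pdx (−0.29) were lower as well, and Pgls, Tkt and Rpia were not called (−0.07, −0.24 and −0.08). Of the members lower here, Gpi1, Gapdh, Pdha1, Dlat, Pdk2 and Pgd were also called lower with TMM, whereas Pfkp, Aldoa, Pdk3, G6pdx and Taldo1 were not. With the clonal line as a block, Pfkp and G6pdx were not called (−0.30 and −0.29).

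At 72 h the isoenzymes of lactate dehydrogenase and of phosphofructokinase moved in opposite directions. Relative to RGd2 2ip5, Ldha and Pfkl rose and Ldhb and Pfkp fell, while Pgls, G6pdx, Aldoc, Tpi1, Pdk2 and Eno2 rose. Of 32 members 9 were higher (28.1%) and 8 lower (25.0%), where of all 12247 genes past the minimum 34.2% were higher and 22.9% lower. With TMM 9 were higher and 11 lower, against 31.6% and 33.2%. All 17 calls were made in the same direction under both scalings. Against RGd2 2i in place of 2ip5, 9 were higher and 13 lower. Here and below, counts with this exchanged reference have no share of all genes beside them and are not read against one. Here the median of all genes moved by 0.11 on the log2 scale and that of the members by 0.03.

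Ldha had normalised counts of 17462, 18390 and 16228 in RGd2 2ip5 and 34834, 40179 and 41094 at N72h, a log2 fold change of 1.16 (SE 0.13, adjusted p = 4.50e-10 by edgeR). Ldhb had 10418, 11763 and 11180 in 2ip5 and 2944, 3217 and 3010 at N72h (−1.86, SE 0.16, adjusted p = 1.29e-12 by edgeR). For both genes the libraries of the 2 conditions were far apart, with Ldha high and Ldhb low at N72h. Pfkl rose from 6579, 6797 and 5905 to 13500, 15478 and 15204 (1.20, SE 0.14, adjusted p = 9.58e-10 by edgeR), and Pfkp, the platelet-type phosphofructokinase, fell from 7202, 6840 and 6413 to 2245, 2244 and 2355 (−1.58, SE 0.13, adjusted p = 2.60e-13 by edgeR). Pfkm, the muscle type, was not called (0.20). The exchange was between Pfkl and Pfkp.

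Hk1 fell from 1716, 1962 and 1882 normalised counts to 871, 899.5 and 997 (−1.01, SE 0.12, adjusted p = 7.01e-09 by edgeR) while Hk2, the hexokinase of growing cells, was not called (−0.01). Pgls, the lactonase of the pentose phosphate path, rose from 933, 987 and 835 to 2141, 2121 and 2235 (1.24, SE 0.12, adjusted p = 3.57e-11 by edgeR). Eno2, the neuronal enolase, rose from 101, 53.9 and 65.8 to 162, 156 and 189 (1.26, SE 0.25, adjusted p = 4.59e-05 by edgeR), at levels under 2 FPKM. None of these groups overlapped. Around them Pgd (−0.69), Pdha1 (−0.64), Pdhb (−0.51) and Taldo1 (−0.33) fell, and Dlat was higher (0.27). Pdha1, Pdhb and Dlat are subunits of 1 complex, so its genes did not move together. Dlat was not called with the clonal line as a block (0.27), and against RGd2 2i instead of 2ip5 it was −0.07. Against RGd2 2i, Pdk2 (0.09), G6pdx (0.23) and Pfkfb3 (−0.40) were not called either. Pdk1, high at N16h, had 4053, 4101 and 4260 at N72h against 4180, 4227 and 3799 in 2ip5 (0.02, not called).

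**Figure D2:**
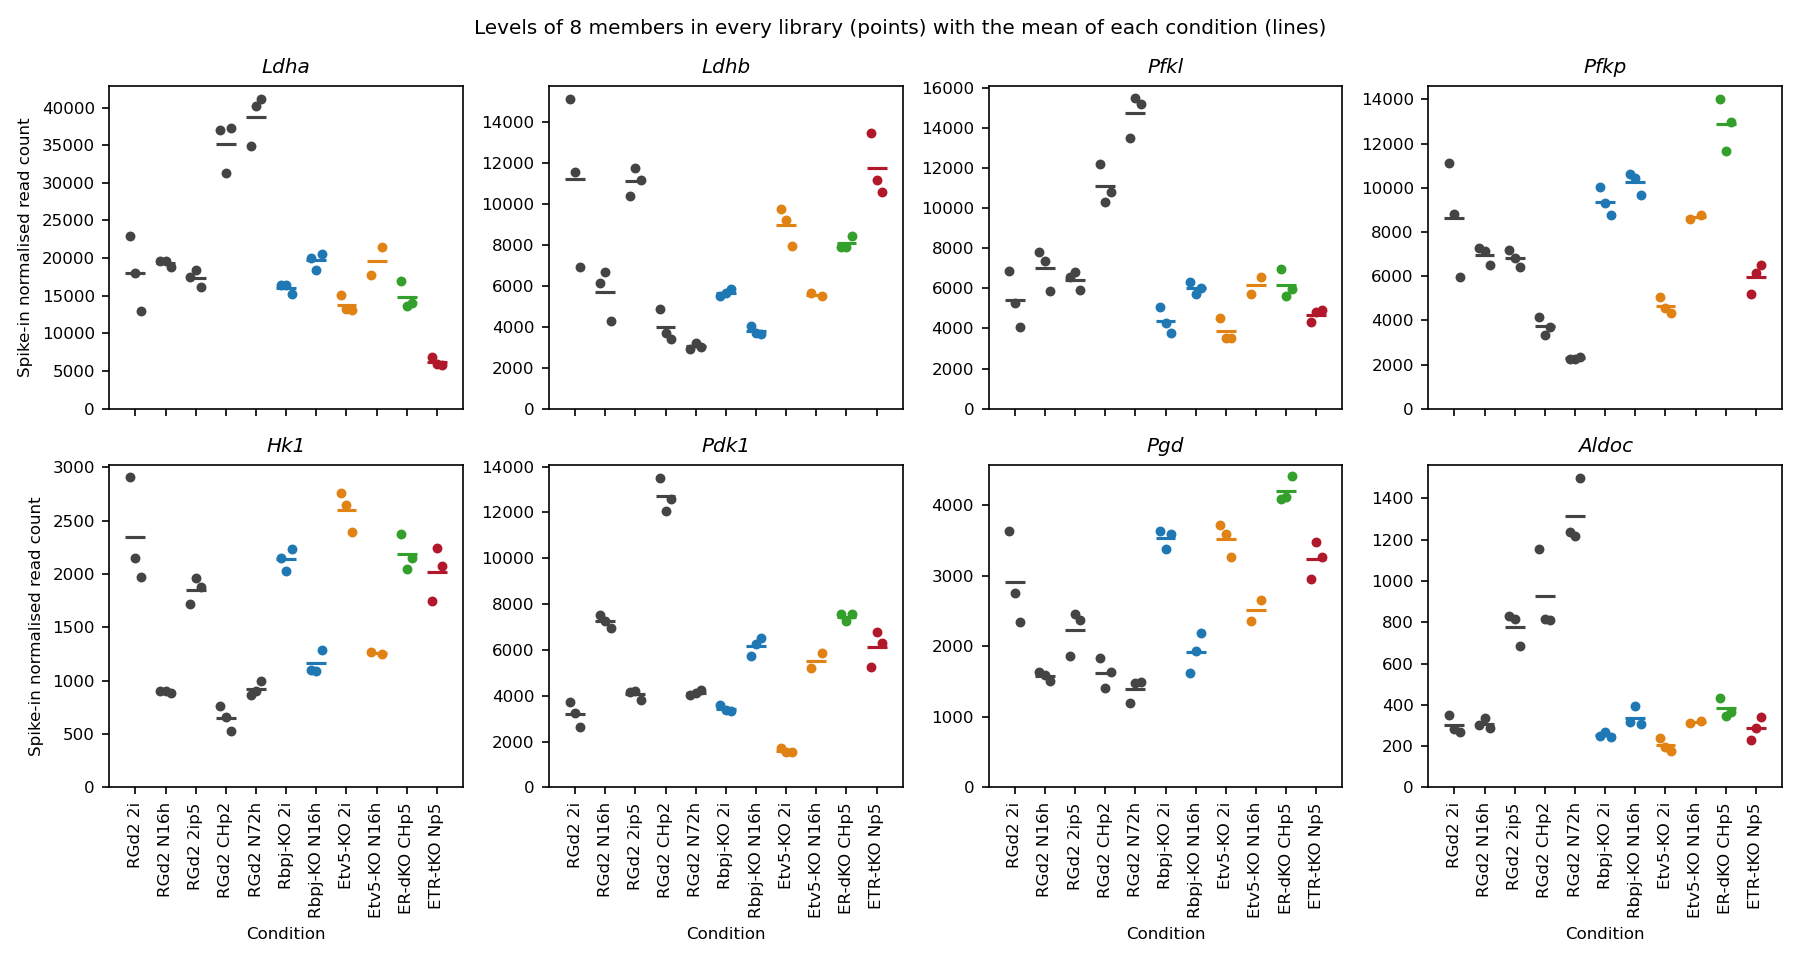
Spike-in normalised read counts (vertical axes, from 0) of 8 members in each library (points) of the 11 conditions, with the mean of each condition as a line, coloured by genotype. Ldha at N72h (34834 to 41094) and Ldhb (2944 to 3217) lie on opposite sides of their values in RGd2 2ip5, and Ldha in ETR-tKO (5821 to 6810) lies under every other library.

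After 2 passages in CH alone, RGd2 cells had more Ldha, Pfkl, Pdk1 and Eno1 and less Ldhb, Hk1 and Pfkp than in 2ip5. Of 31 members past the minimum 8 were higher (25.8%) and 6 lower (19.4%) than in RGd2 2ip5, where of all 12054 genes 28.6% were higher and 13.6% lower. With TMM 7 were higher and 14 lower, against 22.2% and 28.7%. Against RGd2 2i, 8 were higher and 12 lower. The comparison shares its RGd2 2ip5 libraries with that of N72h. Pdk1 rose from 4180, 4227 and 3799 to 13483, 12042 and 12604 normalised counts, higher than in any other library of the series (log2 fold change 1.64, SE 0.10, adjusted p = 3.40e-16 by edgeR). Ldha rose to 36951, 31346 and 37257 (1.02, SE 0.13, adjusted p = 1.63e-08 by edgeR) and Ldhb fell to 4869, 3715 and 3399 (−1.48, SE 0.16, adjusted p = 9.15e-10 by edgeR). None of the 3 genes overlapped with 2ip5.

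Hk1 fell to 759, 656 and 527 in CHp2 (−1.52, SE 0.13, adjusted p = 1.11e-12 by edgeR), Pfkp to 4169, 3353 and 3699 (−0.87, SE 0.13, adjusted p = 6.84e-07 by edgeR), and Pfkm also fell (−0.46). Pfkl (0.79), Pgls (0.80) and G6pdx (0.63) rose, and Eno2 had 140, 151 and 151 against 101, 53.9 and 65.8 in 2ip5 (1.06, SE 0.26, adjusted p = 9.72e-04 by edgeR). Eno1, which supplies nearly all enolase transcripts, rose by 0.73 on the log2 scale in CHp2 and was not called at N72h (0.03). Pgd (−0.46) and Taldo1 (−0.32) fell. Dlat (0.27) was called with the spike-ins alone, was not called with the clonal line as a block (0.27), and was −0.06 against RGd2 2i, where G6pdx was not called either (0.20). These cells also expressed T, at a mean of 69.1 FPKM against 5.81 FPKM in 2ip5.

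As shares of summed FPKM within a library, which do not depend on the scaling between libraries, Ldha made up 43.8% ± 2.89 (SD, n = 3) of lactate dehydrogenase transcripts in RGd2 2i and 42.5% ± 1.76 in 2ip5. The share was 62.0% ± 4.97 at N16h, 80.7% ± 2.87 in CHp2 and 85.7% ± 0.88 at N72h (SD, n = 3 each). No library of the exited conditions (78.3% to 86.6%) overlapped with the 2i conditions (40.8% to 47.1%). Pfkp went from 29.0% ± 2.11 of phosphofructokinase transcripts in 2i and 23.3% ± 1.27 in 2ip5 to 11.3% ± 0.26 in CHp2 and 5.34% ± 0.30 at N72h, while Pfkl went from 36.8% ± 0.19 and 44.0% ± 0.41 to 67.6% ± 0.30 and 69.0% ± 1.16. Hk1 was 22.0% ± 0.94 of the hexokinase pair in 2i and 10.6% ± 0.23 at N16h. Eno1 (94.0% or more) and Aldoa (97.1% or more) dominated their families in every condition mean. Shares of raw counts, which weigh a long gene more, gave Ldha 62.1% in 2i and 92.7% at N72h, the same order with other values. Shares were described without a test.

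**Figure D3:**
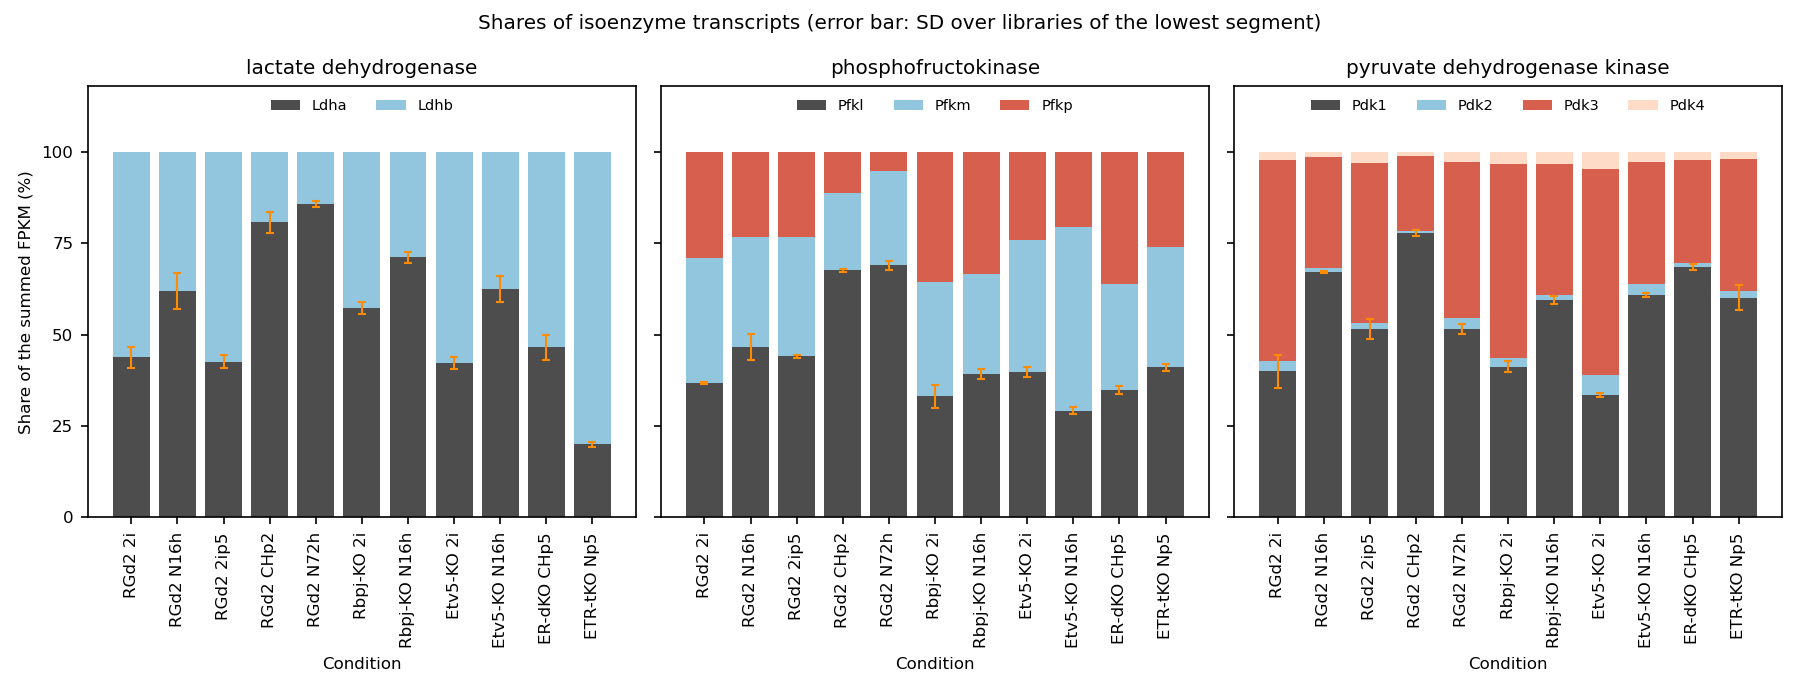
Shares (%) of each isoenzyme gene in the summed FPKM of its family in the 11 conditions, as stacked bars of the condition means, with the SD over libraries (orange) for the lowest segment. Ldha goes from 43.8% in RGd2 2i to 85.7% at N72h and is 20.0% in ETR-tKO.

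The naive references themselves differed. RGd2 2ip5 had 3 members higher (9.68%) and 14 lower (45.2%) than RGd2 2i, of 31 past the minimum, where of all 11552 genes 2.89% were higher and 49.4% lower. With TMM the split was 12 higher and 0 lower (none by edgeR), against 13% and 12.6% of all genes, and the median of all genes moved from −0.37 to −0.03. The directions of most members in this comparison therefore depend on the scaling: Gapdh, Pgam1, Pdhb, Tkt and Dlat were lower with the spike-ins and at 0.05, 0.04, 0.09, 0.08 and 0.00 with TMM. Without RGd2 2i replicate 31, whose spike-in share of 0.99% was the lowest of all libraries, 7 members were called (5 higher and 2 lower), and 10 were called without 2ip5 replicate 1 or 3 (3 higher and 7 lower each). A model of only these 6 libraries called 2.

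Aldoc, Pgk1 and Pdk1 were higher in 2ip5 under both scalings. Aldoc, a brain-type aldolase, had 348, 283 and 271 normalised counts in 2i and 830, 815 and 685 in 2ip5 (log2 fold change 1.35, SE 0.16, adjusted p = 3.93e-08 by edgeR). Pgk1 had 15462, 12662 and 9044 in 2i and 15897, 16739 and 15691 in 2ip5 (0.38, SE 0.12, adjusted p = 0.0104 by edgeR) and Pdk1 3736, 3229 and 2657 against 4180, 4227 and 3799 (0.34, SE 0.10, adjusted p = 0.00964 by edgeR). Neither was called without RGd2 2i replicate 33, at 0.19 and 0.22. Among the lower genes Pdk2 had 121, 74.9 and 84.8 against 63.6, 52.6 and 43.2 (−0.87, adjusted p = 0.00896 by edgeR), Hk2 7154, 5644 and 4643 against 3580, 3940 and 4115 (−0.59, adjusted p = 7.93e-04 by edgeR) and G6pdx 2919, 2181 and 1958 against 1822, 1802 and 1634 (−0.43, adjusted p = 0.00455 by edgeR). None of the 3 was called with TMM (−0.51, −0.25 and −0.10), and Pdk2 and G6pdx were not called without 2i replicate 31 (−0.58 and −0.24), nor Pdk2 without 2ip5 replicate 3 (−0.72). Gapdh, Pgam1, Pdhb and Tkt were not called with the clonal line as a block (−0.28, −0.28, −0.24 and −0.24).

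Loss of Rbpj changed few members in 2i: Ldhb, Pfkfb3 and Eno3 fell. Rbpj encodes the DNA-binding factor of the Notch pathway, which represses its targets when Notch is off. Of 32 members 0 were higher and 3 lower (9.38%), where of all 11546 genes 5.24% were higher and 6.12% lower. For the higher genes 3 had an unadjusted p under 0.05 in edgeR, and DESeq2 called 0. With TMM 2 were higher and 5 lower, against 10.8% and 7.18%, and without RGd2 2i replicate 33 10 were lower. Ldhb had 5509, 5671 and 5834 normalised counts in Rbpj-KO 2i against 15166, 11557 and 6945 in RGd2 2i (log2 fold change −0.99, SE 0.16, adjusted p = 1.88e-05 by edgeR). Pfkfb3 had 210, 198 and 202 against 487, 365 and 254 (−0.91, SE 0.21, adjusted p = 0.00206 by edgeR), and Eno3 183, 202 and 192 against 446, 333 and 210 (−0.83, SE 0.19, adjusted p = 0.00191 by edgeR). The 3 clones were close together and under each parental library. Without RGd2 2i replicate 31, Pfkfb3 (−0.65) and Eno3 (−0.56) were not called.

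At N16h Ldhb, Pfkfb3 and Eno3 were lower in Rbpj-KO, and Eno2, Pdk4 and Pfkp were higher. Of 31 members 5 were higher (16.1%) and 3 lower (9.68%), where of all 11717 genes 18.8% were higher and 3.41% lower. With TMM 3 were higher and 10 lower, against 13.7% and 11.6%, and the median of all genes moved from 0.15 to −0.01. Leaving out any 1 of the 6 libraries gave 3 to 5 called members. Pfkp had 10630, 10446 and 9690 normalised counts against 7272, 7128 and 6522 in RGd2 (log2 fold change 0.56, SE 0.13, adjusted p = 0.00130 by edgeR) without overlap. Eno2 had 159, 115 and 126 against 65.1, 42.3 and 63.4 (1.25, SE 0.24, adjusted p = 1.50e-04 by edgeR), and Pdk4, a kinase of pyruvate dehydrogenase known from fasting, 111, 156 and 193 against 84.3, 50.7 and 89.0 (1.05, SE 0.23, adjusted p = 6.26e-04 by edgeR).

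These last genes were near the FPKM minimum, and without Rbpj-KO replicate 19 Eno2 (1.10) no longer met that minimum. Ldhb had 4037, 3683 and 3645 against 6170, 6678 and 4287 (−0.59, SE 0.16, adjusted p = 0.00639 by edgeR), and was not called without RGd2 replicate 23 (−0.46). Pfkfb3 had 103, 123 and 160 against 221, 219 and 155 (−0.64, SE 0.21, adjusted p = 0.0303 by edgeR), with 1 Rbpj-KO library above the lowest RGd2 library, and was not called without RGd2 replicate 22 (−0.57) or 23 (−0.56) or Rbpj-KO replicate 19 (−0.50) or 20 (−0.62). Eno3 had 401, 381 and 402 against 577, 551 and 537 (−0.49, SE 0.17, adjusted p = 0.0448 by edgeR), and its call was lost whichever library was left out (−0.51 to −0.47) and with DESeq2 (−0.49). The Ldha share was 57.3% ± 1.74 in Rbpj-KO 2i and 71.1% ± 1.45 at N16h (SD, n = 3 each), where RGd2 had 43.8% and 62.0%. No member was called for a different response to 2i withdrawal between Rbpj-KO and RGd2, with 0 of 32 in either direction by edgeR and by DESeq2. Of all 12162 genes 3.79% were higher and 0.238% lower, so the members were near the share of all genes. Their differences ran from −0.32 to 0.61 on the log2 scale, and 3 were higher and 1 lower at an unadjusted p under 0.05 in edgeR. TMM called 0 higher and 1 lower, against 2.29% and 1.30%, and without RGd2 2i replicate 33 4 were higher.

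Loss of Etv5 left more of the chain low in 2i. Etv5 encodes an ETS-family factor that responds to ERK signalling. In Etv5-KO 2i 0 members were higher and 17 of 31 lower (54.8%), where of all 11569 genes 6.14% were higher and 27.9% lower. For the higher genes 1 had an unadjusted p under 0.05 in edgeR and DESeq2 called 0. With TMM 4 were higher and 8 lower, against 19.9% and 12.9%, and the median of all genes moved from −0.23 to 0.01. Pfkfb3, Pdk1, Pfkp, Eno3, Pdk3, Pfkm, Pfkl and Pgk1 were lower under both scalings. Without RGd2 2i replicate 31, 8 members were called (2 higher and 6 lower), and without Etv5-KO replicate 27, 10. A model of only these 6 libraries called 5.

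Pdk1 had 1708, 1564 and 1548 normalised counts in Etv5-KO 2i against 3736, 3229 and 2657 in RGd2 (log2 fold change −1.0, SE 0.10, adjusted p = 7.75e-10 by edgeR), the lowest values of the series. Pfkfb3 had 153, 193 and 123 against 487, 365 and 254 (−1.29, SE 0.21, adjusted p = 5.20e-06 by edgeR), and Pfkp 5074, 4569 and 4336 against 11138, 8796 and 5968 (−0.89, SE 0.13, adjusted p = 8.87e-07 by edgeR). Every Etv5-KO library was under every RGd2 library for the 3 genes. The 17 lower genes also held Aldoa, Gapdh, Pgam1, Eno1, Pkm and Ldha, between −0.39 and −0.31, none of which was called with TMM. Ldhb was not called (−0.33), and the Ldha share of 42.2% ± 1.73 (SD, n = 3) was near the 43.8% of RGd2.

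At N16h Etv5-KO cells had more Pfkm than any other cells of the series. Of 31 members 9 were higher (29.0%) and 1 lower (3.23%), where of all 11735 genes 29.3% were higher and 3.24% lower, shares close to each other. With TMM 5 were higher and 5 lower, against 15.9% and 12.2%. Without Etv5-KO replicate 18, which leaves a single library assumed to vary like those of the other groups, 5 were called. Pfkm had 4466 and 4894 normalised counts against 1921, 2025 and 2030 in RGd2 N16h (log2 fold change 1.23, SE 0.13, adjusted p = 5.14e-10 by edgeR). Its value in the other 27 libraries outside these groups lay between 1414 and 2770.

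Pdha1, the alpha subunit of pyruvate dehydrogenase, had 8885 and 9769 against 5414, 5700 and 5720 (0.73, SE 0.13, adjusted p = 5.61e-05 by edgeR). Pdk2 had 95.4 and 134 against 53.2, 61.6 and 48.1 (1.07, SE 0.26, adjusted p = 0.00171 by edgeR), and was not called without Etv5-KO replicate 18 (0.80). Pgd (0.67) and Hk1 (0.49) were higher as well. Pdk1 had 5218 and 5849 against 7505, 7281 and 6938 (−0.39, SE 0.11, adjusted p = 0.0103 by edgeR), and was not called without Etv5-KO replicate 17 (−0.31). Pfkm, Pdha1, Pdk2, Pgd, Hk1 and Pdk1 were called in the same direction with TMM. Pfkm made up 50.2% ± 0.04 of phosphofructokinase transcripts (SD, n = 2) and 36.2% ± 0.57 in Etv5-KO 2i (SD, n = 3), while RGd2 had 30.2% ± 3.07 at N16h (SD, n = 3).

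The response to 2i withdrawal was compared between the genotypes as a difference of differences. For Etv5-KO against RGd2, 15 of 31 members had a higher response (48.4%) and 0 a lower one, where of all 12246 genes 36.7% were higher and 0.531% lower. No member had a lower response at an unadjusted p under 0.05 in edgeR (0 genes) or in DESeq2 (0 genes). With TMM, which moved the median of all genes from 0.47 to −0.01, 2 were higher (Pfkm and Pfkp) and 0 lower, against 7.79% and 5.3% of all genes. Pfkm rose 1.60 on the log2 scale between the means of Etv5-KO 2i (1549) and N16h (4680) and changed by −0.15 in RGd2 (2211 and 1992), a difference of 1.75 (SE 0.17, adjusted p = 4.13e-10 by edgeR). Pfkp changed by 0.89 in Etv5-KO (4660 and 8665) and by −0.31 in RGd2 (8634 and 6974), a difference of 1.21 (SE 0.19, adjusted p = 8.20e-06 by edgeR). Pfkfb3 changed by 0.23 in Etv5-KO (156 and 183) and by −0.90 in RGd2 (369 and 198), a difference of 1.17 (SE 0.30, adjusted p = 0.00396 by edgeR), which was 0.68 and not called with TMM. The number of members called was 4 in a model of only the libraries compared, 6 without Etv5-KO N16h replicate 18 and 26 without RGd2 2i replicate 33. With the clonal line as a block Taldo1, Pdk2 and Tkt were not called (0.45, 0.89 and 0.46).

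**Figure D4:**
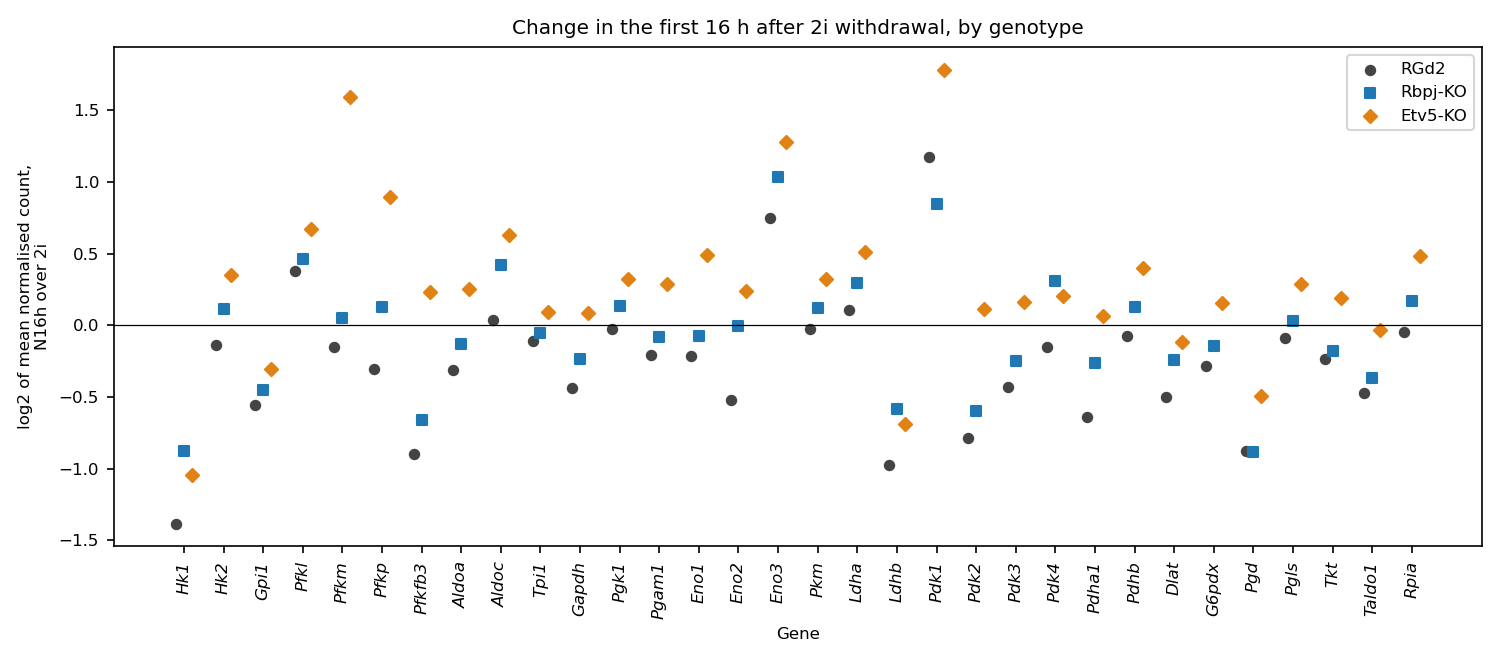
Change of each of the 32 genes between 2i and N16h (log2 of the ratio of mean spike-in normalised counts) in RGd2 (circles), Rbpj-KO (squares) and Etv5-KO (diamonds). Pfkm stands at 1.60 in Etv5-KO, −0.15 in RGd2 and 0.05 in Rbpj-KO, and most Etv5-KO points lie above those of RGd2, together with the median of all genes.

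In ER-dKO cells in CH, Pfkp, Pdk1 and the NADPH-forming enzymes rose and Pfkfb3, Aldoc and Ldhb fell. Against RGd2 2ip5 genotype and medium changed together and cannot be told apart. Of 30 members 6 were higher (20.0%) and 3 lower (10%), where of all 11562 genes 33.9% were higher and 8.43% lower. With TMM 4 were higher and 9 lower, against 24.7% and 17.5%. Against RGd2 2i, 5 were higher and 7 lower, and without replicate 12, whose Rbpj count goes against its label, 5 were higher and 3 lower than in 2ip5. Without it Pfkp had 0.91, Pgd 0.87, G6pdx 0.91, Pdk1 0.86, Pfkfb3 −1.54, Aldoc −1.0 and Ldhb −0.49, each still called. Pfkp had 14015, 11667 and 12957 normalised counts against 7202, 6840 and 6413 (log2 fold change 0.92, SE 0.13, adjusted p = 3.42e-07 by edgeR), the highest values of the series. Both NADPH-forming enzymes rose: Pgd had 4083, 4109 and 4412 against 1862, 2459 and 2367 (0.91, SE 0.13, adjusted p = 3.84e-07 by edgeR), and G6pdx, the entry enzyme of the path, 3380, 3215 and 3154 against 1822, 1802 and 1634 (0.89, SE 0.12, adjusted p = 1.58e-07 by edgeR). Pdk1 rose as well (0.87), and none of these groups overlapped.

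Pfkfb3 had 188, 164 and 147 in ER-dKO against 450, 519 and 553 (−1.61, SE 0.20, adjusted p = 3.38e-08 by edgeR) and Ldhb 7926, 7910 and 8436 against 10418, 11763 and 11180 (−0.46, SE 0.16, adjusted p = 0.0224 by edgeR). The Ldhb call was lost without ER-dKO replicate 10 (−0.45) or 11 (−0.44) or RGd2 2ip5 replicate 2 (−0.42) or 3 (−0.46). Aldoc had 433, 348 and 367 against 830, 815 and 685 (−1.02, SE 0.15, adjusted p = 7.57e-07 by edgeR), but against RGd2 2i (348, 283 and 271) its log2 fold change was 0.33. Ldha was not called (−0.22), and its share was 46.5% ± 3.38 (SD, n = 3). Dlat (0.31) and Tkt (0.29) were called with the spike-ins alone, and against RGd2 2i they were −0.03 and 0.05. Tkt was not called without replicate 12 (0.29).

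ETR-tKO cells, which grow in N2B27 without inhibitors, had the lowest Ldha of any condition, and Pgk1, Tpi1 and Aldoa were also lower than in RGd2 2ip5. In this comparison too, genotype and medium changed together and cannot be told apart. Of 31 members 5 were higher (16.1%) and 10 lower (32.3%), where of all 11814 genes 37.7% were higher and 9.53% lower. With TMM 4 were higher and 21 lower (67.7%), against 25.4% and 23.5%. Against RGd2 2i, 2 were higher and 15 lower. The median log2 fold change of the members was −0.14, that of all genes 0.27. Ldha had 6810, 5886 and 5821 normalised counts against 17462, 18390 and 16228 in RGd2 2ip5, a log2 fold change of −1.49 (SE 0.13, adjusted p = 2.40e-12 by edgeR). The 3 ETR-tKO libraries were close together and under all 29 other libraries of the series. Of the 3, replicates 14 and 15 share the label prefix Tc1 and may not be independent lines.

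Aldoc had 230, 287 and 342 normalised counts against 830, 815 and 685 in 2ip5 (−1.44, SE 0.15, adjusted p = 4.46e-10 by edgeR), but −0.09 against RGd2 2i. Pfkfb3 had 277, 155 and 215 against 450, 519 and 553 (−1.23, SE 0.20, adjusted p = 4.13e-06 by edgeR). Pgk1 (−0.93), Tpi1 (−0.77), Aldoa (−0.50) and Pfkl (−0.46) fell, and Pfkm (−0.35), Gpi1 (−0.32) and Eno1 (−0.26) were lower by less. Against RGd2 2i, Pfkl (−0.21) and Eno1 (−0.14) were not called. The Eno1 call was also lost in 5 of 6 fits that left out a library (all but that without 2ip5 replicate 1; −0.29 to −0.19), the Gpi1 call without ETR-tKO replicate 13 (−0.24) or 2ip5 replicate 1 (−0.31) or 2 (−0.30), and the Pfkm call without 2ip5 replicate 2 (−0.26). Pfkp (−0.20), Pgam1 (−0.11) and Gapdh were not called (Gapdh 0.09; 101782, 85646 and 83830 against 90081, 88565 and 76738), nor was Ldhb (0.08). The Ldha share was 20.0% ± 0.65 (SD, n = 3), under the 40.8% to 44.3% of the 2ip5 libraries.

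Of the genes higher in ETR-tKO, Eno2 had 180, 174 and 136 against 101, 53.9 and 65.8 (1.20, SE 0.25, adjusted p = 1.34e-04 by edgeR) and Pdk1 5238, 6783 and 6315 against 4180, 4227 and 3799 (0.59, SE 0.10, adjusted p = 1.33e-05 by edgeR). Pgd had 2960, 3474 and 3268 against 1862, 2459 and 2367 (0.53, SE 0.13, adjusted p = 9.19e-04 by edgeR), but 0.14 and no call against RGd2 2i. G6pdx (0.48) and Pgls (0.45) were higher, Pgls with the spike-ins alone, and neither was called against RGd2 2i (0.05 and 0.22). The pentose phosphate genes Tkt, Taldo1 and Rpia were not called (−0.01, 0.14 and −0.13).

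**Figure D5:**
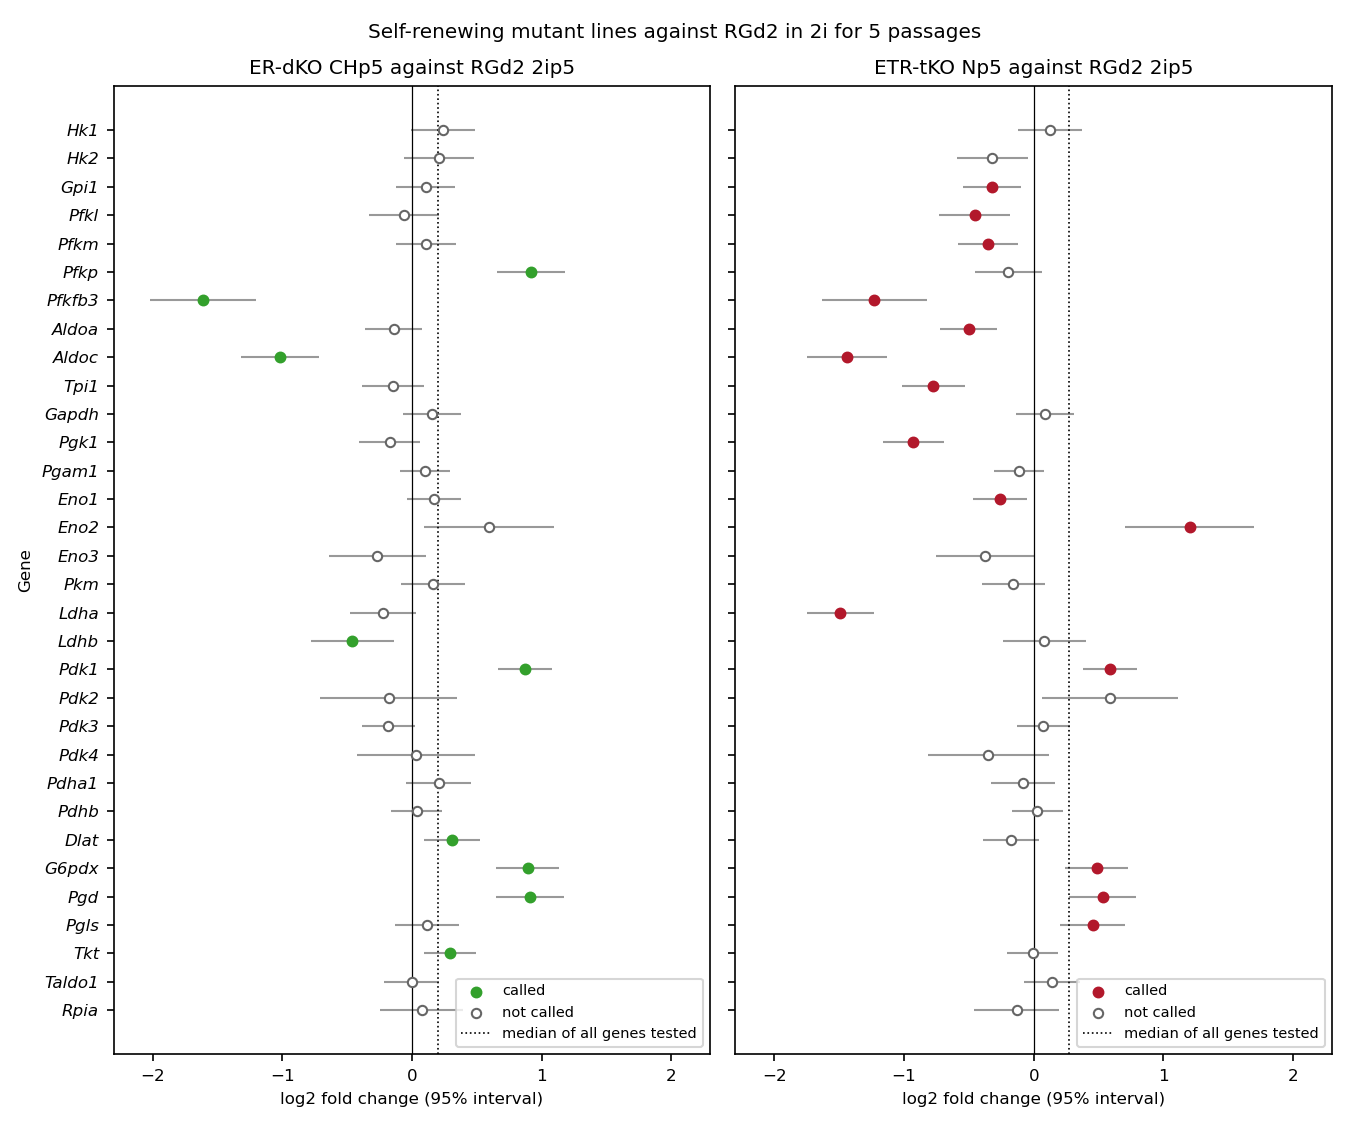
Log2 fold changes of the 32 genes (horizontal axes) with their 95% intervals from edgeR in ER-dKO CHp5 and ETR-tKO Np5 against RGd2 2ip5, filled where called, with the median of all genes as a dotted line. Ldha stands at −0.22 in ER-dKO and −1.49 in ETR-tKO, and Pgd and G6pdx lie right of the dotted line in both.

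Set against RGd2 cells in the same medium, the mutants had more Pfkp, Ldhb, Hk1 and Pgd and less Ldha, Pfkl and Aldoc. ER-dKO CHp5 against RGd2 CHp2 had 9 of 31 members higher (29.0%) and 9 lower, where of all 12083 genes 28.3% were higher and 21.3% lower. With TMM the numbers were 10 and 9, against 35.6% and 23.5%, and without ER-dKO replicate 12 they were 8 and 8. Pfkp (14015, 11667 and 12957 against 4169, 3353 and 3699) was 1.78 higher on the log2 scale (SE 0.13, adjusted p = 1.48e-14 by edgeR), Hk1 (2375, 2047 and 2147 against 759, 656 and 527) 1.76 higher (SE 0.13, adjusted p = 1.04e-14 by edgeR), and Pgd (4083, 4109 and 4412 against 1838, 1411 and 1633) 1.37 higher (SE 0.13, adjusted p = 1.58e-11 by edgeR). Pfkfb3 (188, 164 and 147 against 666, 429 and 493) had −1.66 (SE 0.20, adjusted p = 7.36e-09 by edgeR), Aldoc (433, 348 and 367 against 1155, 816 and 811) −1.27 (SE 0.15, adjusted p = 2.49e-09 by edgeR) and Ldha (16982, 13634 and 14085 against 36951, 31346 and 37257) −1.24 (SE 0.13, adjusted p = 1.18e-10 by edgeR). None of these 6 pairs of groups overlapped, and without replicate 12 the values were 1.78, 1.77, 1.33, −1.59, −1.25 and −1.20, each still called. The passage number differs too, 5 against 2.

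ETR-tKO Np5 against RGd2 N72h had 8 of 32 members higher (25.0%) and 12 lower (37.5%), where of all 12338 genes 35.5% were higher and 23.6% lower. With TMM 8 were higher and 18 lower, against 34.1% and 31.7%. Ldha (6810, 5886 and 5821 against 34834, 40179 and 41094) had a log2 fold change of −2.65 (SE 0.13, adjusted p = 6.87e-20 by edgeR), Aldoc (230, 287 and 342 against 1236, 1215 and 1496) −2.21 (SE 0.15, adjusted p = 1.10e-15 by edgeR) and Pfkl (4339, 4796 and 4926 against 13500, 15478 and 15204) −1.65 (SE 0.14, adjusted p = 2.59e-13 by edgeR). On the other side Ldhb (13467, 11194 and 10612 against 2944, 3217 and 3010) had 1.94 (SE 0.16, adjusted p = 4.24e-13 by edgeR), Pfkp (5193, 6151 and 6489 against 2245, 2244 and 2355) 1.38 (SE 0.13, adjusted p = 8.98e-12 by edgeR) and Pgd (2960, 3474 and 3268 against 1201, 1477 and 1489) 1.22 (SE 0.13, adjusted p = 1.88e-10 by edgeR). The groups were apart in all 6. The 2 conditions differ in genotype and in time in N2B27.

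The genes that carry glucose, lactate and pyruvate across membranes were taken as a list of 8, of which 7 could be tested and 6 passed the FPKM minimum in each of the RGd2 comparisons below. In RGd2 N16h, 2 were higher and 2 lower, where of all genes 8.63% were higher and 37.4% lower. At N72h 4 and 2 were called (34.2% and 22.9% of all genes), and in CHp2 5 and 1 (28.6% and 13.6%). With TMM the counts were 2 and 1 (22.4% and 23.8% of all genes), 3 and 2 (31.6% and 33.2%), and 4 and 1 (22.2% and 28.7%). Slc2a1, the widespread glucose transporter, was higher in all 3 (0.70, 2.4 and 1.28), as was the lactate exporter Slc16a3 (2.02, 2.21 and 1.05). Slc2a3, a high-affinity glucose transporter, was lower at N16h (−1.18) and N72h (−1.32) and higher in CHp2 (0.48). Mpc1, part of the mitochondrial pyruvate carrier, fell at N72h (−1.98) and in CHp2 (−0.62). Slc16a1 followed the scaling (−0.30, 0.24 and 0.32, none called with TMM), and Slc2a4 was higher at N72h (1.19) and in CHp2 (0.96) at means of 1.35 and 1.09 FPKM. In the mutants, Mpc1 was higher at N16h in Rbpj-KO (0.98) and Etv5-KO (0.64). Mean Slc2a3 at N16h was 41287 normalised counts in Rbpj-KO and 39742 in Etv5-KO against 18949 in RGd2. Mean Slc2a1 was 14708 and 6699 against 8990. Against RGd2 N72h, Mpc1 was 2.64 higher in ETR-tKO, where Slc2a1 (−1.60) and Slc16a3 (−1.71) were lower and mean Slc2a3 was 44090 against 16272. Of 6 past the minimum, 3 were higher and 0 lower in Rbpj-KO N16h (18.8% and 3.41% of all genes). Etv5-KO had 2 and 1 at N16h (29.3% and 3.24%) and 0 and 4 in 2i (6.14% and 27.9%). With TMM Rbpj-KO N16h had 3 and 1 (13.7% and 11.6% of all genes). Etv5-KO then had 2 and 1 at N16h (15.9% and 12.2%) and 1 and 2 in 2i (19.9% and 12.9%).

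Of 25 further enzymes of the same steps 21 could be tested. At N16h 0 of 13 past the FPKM minimum were higher and 5 lower (8.63% and 37.4% of all genes), and at N72h 7 of 14 were higher and 3 lower (34.2% and 22.9%). In CHp2 2 of 12 were higher and 2 lower (28.6% and 13.6%), and in ETR-tKO against RGd2 2ip5 6 of 14 and 2 (37.7% and 9.53%). With TMM 1 was higher and 4 lower at N16h (22.4% and 23.8% of all genes), and 7 and 4 at N72h (31.6% and 33.2%). The TMM counts were 2 and 7 in CHp2 (22.2% and 28.7%) and 4 and 3 in ETR-tKO (25.4% and 23.5%). Tigar, which lowers the activator of phosphofructokinase, fell in RGd2 at N16h (−1.31), N72h (−1.63) and in CHp2 (−1.05), and its log2 fold changes in the mutants were 0.51 in Rbpj-KO N16h, 0.76 in Etv5-KO N16h and −0.46 in ETR-tKO against 2ip5, each called. Rpe, the epimerase of the pentose phosphate path, fell at N16h (−0.55) and rose in ER-dKO (0.77) and ETR-tKO (1.03) against 2ip5. Bpgm (1.09 at N72h and 0.69 in CHp2) and Dld (0.51 and 0.59), a subunit shared by mitochondrial dehydrogenases, rose in the exited cells. Fbp2, a gluconeogenic phosphatase, was higher in Rbpj-KO (1.80 in 2i and 1.44 at N16h) and Etv5-KO (2.47 and 2.3), at a mean of 4.79 FPKM or less.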

How the data were processed

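Directional libraries were made from ribosome-depleted RNA with ERCC spike-ins. After trimming with Trim Galore and alignment to mm10 (GRCm38) with TopHat2, the authors deposited unnormalised counts of unique gene matches from featureCounts. FPKM was computed here from these counts and the exon lengths in the table. Genes without a symbol (193) held 0.0259% of counts.

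Size factors were medians of ratios over the 52 of 92 spike-ins above 0 in every library. Counts were tested with edgeR 4.0.16 (quasi-likelihood, 1 model of 32 libraries, Benjamini-Hochberg adjustment over 18892 genes after filterByExpr). Genes were called at an adjusted p under 0.05 where either group averaged 1 FPKM or more. DESeq2 1.42.0, R 4.3.3, Python 3.11.15 and matplotlib 3.10.9 were also used, and the tests were tested on simulated data. Values in every library are given for up to 3 called members per direction with the largest change. The members, lists and rule were chosen with earlier results of these data known. The values of 1 listed factor are not reported here.

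Replicates differed by more than counting noise (chi-square per gene 3.25 to 39.7). In ETR-tKO it was 4.86 between replicates 14 and 15, and 22.65 and 26.79 between replicate 13 and each of them. Libraries of 1 clonal line could be paired across media. The correlation of their deviations from the group means was 0.18 for RGd2 2i and N16h, 0.03 to 0.11 for Rbpj-KO, and at most 0.04 elsewhere. Alternatives were other size factors, filters, DESeq2, a model of fewer libraries, the line as a block, the other naive reference and leaving out each library.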

Additional observations from a re-analysis of the deposited data

Results flagged for a closer look

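The response to 2i withdrawal (N16h against 2i) differed between Etv5-KO and RGd2 for 15 members by edgeR's quasi-likelihood test of the difference itself. In phosphofructokinase and its activator the response was higher in Etv5-KO by 1.75 on the log2 scale for Pfkm, 1.21 for Pfkp and 1.17 for Pfkfb3. Further along the chain it was higher by 0.57 for Aldoa, 0.61 for Aldoc, 0.53 for Gapdh, 0.50 for Pgam1 and 0.70 for Eno1. Around pyruvate dehydrogenase it was higher by 0.62 for Pdk1, 0.91 for Pdk2, 0.59 for Pdk3, 0.71 for Pdha1 and 0.48 for Pdhb, and in the pentose phosphate path by 0.43 for Tkt and 0.44 for Taldo1. The median of all genes in the same contrast was 0.47, and with TMM Pfkm (1.27) and Pfkp (0.73) were the members called. Groups had at most 3 libraries, so single libraries were not tested as outliers.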

How the results depend on the processing

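Over the settings other than leaving out a library, 107 of 122 counts of called members stayed within 1.5 times. That tally takes the total called and not the direction. For 2ip5 against 2i it holds TMM (12 higher and 0 lower) as unchanged from the spike-ins (3 higher and 14 lower). It also holds settings that moved almost nothing, such as no FPKM minimum, which kept all 180 gene values. Of the gene values 1379 kept their direction and side of the threshold, 180 lost the call and 16 reversed. With TMM the number called was 7 in Rbpj-KO 2i (3 with spike-ins), 13 in Rbpj-KO N16h (8), 25 in ETR-tKO against 2ip5 (15), and 1 and 2 for the Rbpj-KO and Etv5-KO responses (0 and 15). Median-of-ratios factors on genes gave 8, 14, 25, 1 and 2, and 15 in ER-dKO against 2ip5 (9). A model of only the libraries compared called 8 at N16h (17), 2 for 2ip5 against 2i (17), 5 in Etv5-KO 2i (17) and 4 for the Etv5-KO response. The cause was not tested.

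Against RGd2 2i, Dlat reversed to −0.066 (N72h), −0.062 (CHp2) and −0.026 (ER-dKO), and Aldoc in ER-dKO to 0.33. For 2ip5 against 2i, TMM gave Gapdh 0.046, Dlat 0.0018, Pdhb 0.090, Tkt 0.082 and Pgam1 0.041, and factors on genes gave Gapdh 0.038, Pfkp 0.0017, Pdhb 0.087, Tkt 0.075 and Pgam1 0.0345. In the Etv5-KO response, TMM gave Taldo1 −0.021 and Tkt −0.041.

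Leaving out 1 library kept 956 gene values and lost 189 calls. It gave 14 to 19 called members at N16h, 16 to 18 at N72h, 12 to 14 in CHp2, 7 to 16 for 2ip5 against 2i, 2 to 10 in Rbpj-KO 2i, 3 to 5 in Rbpj-KO N16h, 8 to 21 in Etv5-KO 2i, 5 to 10 in Etv5-KO N16h, 0 to 4 and 6 to 26 for the Rbpj-KO and Etv5-KO responses, 7 to 8 in ER-dKO and 12 to 15 in ETR-tKO against 2ip5, 16 to 19 in ER-dKO against CHp2, and 18 to 22 in ETR-tKO against N72h. With the clonal line as a replicate block, 11 calls were lost, all named in the report. Isoenzyme shares moved by more than 1 SD in 161 of 176 values by raw counts. Depth limits Eno2, Pdk2, Pdk4 and Pfkfb3 most.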

Other observations

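Among 12 factors known to act on glycolysis genes, 7 were called higher and 3 lower at N16h in RGd2, 7 and 2 at N72h and 7 and 3 in CHp2 by edgeR. Of all genes 8.63% were higher and 37.4% lower at N16h, 34.2% and 22.9% at N72h, and 28.6% and 13.6% in CHp2. With TMM the factors gave 8 and 2 (22.4% and 23.8% of all genes), 7 and 4 (31.6% and 33.2%), and 6 and 4 (22.2% and 28.7%). Myc, an activator of growth and glycolysis genes, was higher by 1.55, 1.19 and 2.13 on the log2 scale in the 3 comparisons. Mean Myc was 130 normalised counts at N72h and 251 in CHp2. RGd2 2ip5 had 55.6 (0.89 FPKM) and RGd2 2i 211, so the direction of Myc at N72h depends on the naive reference. The RNA-binding Lin28a was higher by 0.98, 1.71 and 1.60. Lin28b was higher by 1.0, 2.79 and 2.20, and Egln3, an oxygen-dependent hydroxylase, by 2.78, 1.61 and 1.36. Esrrb, a naive factor that is also in the pluripotency marker list, had −1.43, −4.12 and −1.39. Hif1a was not called at N16h (0.13) and was higher at N72h (0.65) and in CHp2 (0.27). In CHp2 the median of all genes was 0.17. Mean Hif1a there was 4188 normalised counts, above the 3479 of RGd2 2ip5 and under the 4615 of RGd2 2i.

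In Etv5-KO 2i, 2 of these factors were higher and 7 lower than in RGd2 2i (6.14% and 27.9% of all genes), or 3 and 5 with TMM (19.9% and 12.9%). Epas1, a hypoxia-inducible factor, had −4.90, Myc −2.0, Lin28b −1.35 and Lin28a −0.97, whereas Egln3 had 1.49 and Vhl 0.42. Mean Myc in Etv5-KO 2i was 51.0 normalised counts, near the 55.6 of the parental cells in RGd2 2ip5. In ETR-tKO against RGd2 2ip5, 7 were higher and 1 lower (37.7% and 9.53% of all genes), or 5 and 1 with TMM (25.4% and 23.5%). Mycn had 1.18, Myc 0.89 and Lin28b −0.51. Mean Myc in ETR-tKO was 106 normalised counts, against 55.6 in RGd2 2ip5 and 211 in RGd2 2i, so its direction depends on the naive reference.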
